A study of Mus musculus with 9 samples.

Results

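Of the 62963 regions of open chromatin called in at least 1 of 9 peak lists from tumor-specific mouse CD8 T cells, 8003 had a peak in every list and lay within 1 kb of an end of a protein-coding gene. These 8003 always-called gene-end regions are described here. They were chosen by their calls: all peaks of the 9 lists on chromosomes 1 to 19 and X were merged wherever they shared at least 1 base, and a region was kept when all 9 lists had a peak in it and either end of an mm10 protein-coding gene was within 1 kb. Another 7106 regions were called in all 9 lists but lay farther from gene ends, so the gene-end regions were 53.0% of the 15109 regions called in all lists. That all lists hold a peak in them is how they were found and is no result.

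The data come from ATAC-seq, in which the transposase Tn5 cuts open DNA and tags it for sequencing. The cells were P14 cells, CD8 T cells whose transgenic receptor recognises GP33-41, a peptide from the lymphocytic choriomeningitis virus glycoprotein, and came from TCF-1-GFP reporter P14 mice. In all groups, 500000 naive (CD44-, GFP+) P14 cells were given to mice with a B16.F10 melanoma expressing that glycoprotein (B16.Gp), 8 days after the tumor cells. CD45.1+CD44+ CD8 T cells on a C57BL/6 background were sorted from tumor-draining lymph nodes 4, 8 or 21 days after the transfer, and each day has 3 libraries of 50000 cells. All groups are labelled WT and no group without tumor, without transfer or before transfer was analysed here. The days were taken from the titles, since the genotype and time-point labels hold each other's values, and whether separate animals gave the 3 libraries of a day is not stated in the labels.

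Most active mammalian promoters lie in CpG islands, stretches rich in the CpG dinucleotide, where nucleosomes are depleted just upstream of the transcription start and general promoter factors such as SP, ETS, NRF1, NF-Y and YY1 proteins bind. Such promoters serve housekeeping genes in nearly every cell type, and lymphocyte-specific genes often start outside CpG islands and depend on distant enhancers. A naive CD8 T cell that meets its antigen divides, turns on effector genes and may later keep a memory-like state marked by TCF-1, the product of Tcf7.

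Promoter sequences of 7 of these regions are printed here, because the results below turn on the motifs they hold. Each is a RefSeq window (GRCm38.p6, the assembly of mm10) of 250 bases before and 50 after a listed start, written 5′ to 3′ on the strand of the gene. Capitals mark matches, on either strand, to the NF-Y box CCAAT, the ETS core CCGGAAG, the NRF1 core GCATGCG, the YY1 core ATGGCGG, the SP and KLF factors' GC box GGGCGG, the TATA box TATAAA and the ISRE core of IRF factors. Hltf (chr3:20057561-20057860, plus strand) and Golph3l (chr3:95588684-95588983, plus strand) are among the strongest regions in every list and hold 2 and 5 NF-Y boxes.
Hltf: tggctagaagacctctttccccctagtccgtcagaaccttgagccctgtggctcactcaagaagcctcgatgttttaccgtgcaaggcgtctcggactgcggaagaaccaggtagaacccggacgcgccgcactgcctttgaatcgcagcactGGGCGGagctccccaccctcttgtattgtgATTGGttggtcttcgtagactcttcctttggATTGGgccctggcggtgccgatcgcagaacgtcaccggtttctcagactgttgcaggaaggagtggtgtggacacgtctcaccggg
Golph3l: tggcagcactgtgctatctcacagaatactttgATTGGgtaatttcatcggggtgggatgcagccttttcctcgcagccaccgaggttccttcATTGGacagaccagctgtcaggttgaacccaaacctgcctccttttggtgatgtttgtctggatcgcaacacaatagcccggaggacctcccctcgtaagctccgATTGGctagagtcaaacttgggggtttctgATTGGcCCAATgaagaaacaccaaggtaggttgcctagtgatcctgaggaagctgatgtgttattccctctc
Id2 (chr12:25096043-25096342, minus strand), the gene of a transcription regulator of effector T cells, and Foxo1 (chr3:52268087-52268386, plus strand), the gene of a factor that maintains naive and memory T cells, hold 3 NF-Y boxes each.
Id2: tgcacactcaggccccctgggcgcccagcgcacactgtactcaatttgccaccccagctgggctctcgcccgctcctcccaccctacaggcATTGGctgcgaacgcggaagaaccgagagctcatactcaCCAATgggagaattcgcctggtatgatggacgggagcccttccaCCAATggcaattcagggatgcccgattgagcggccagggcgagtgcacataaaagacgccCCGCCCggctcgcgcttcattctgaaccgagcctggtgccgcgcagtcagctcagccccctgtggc
Foxo1: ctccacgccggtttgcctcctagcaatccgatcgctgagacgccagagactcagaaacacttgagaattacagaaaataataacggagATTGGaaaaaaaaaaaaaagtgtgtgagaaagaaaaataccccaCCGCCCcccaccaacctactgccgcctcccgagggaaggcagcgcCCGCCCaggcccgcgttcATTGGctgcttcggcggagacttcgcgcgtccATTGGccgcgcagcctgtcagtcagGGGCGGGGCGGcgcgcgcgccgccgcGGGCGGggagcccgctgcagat
The window of Cd3e (chr9:45009562-45009861, minus strand), a chain of the T cell receptor complex, holds no match to these 7 motifs and only 8 CpGs, and so shows a promoter of the other kind.
Cd3e: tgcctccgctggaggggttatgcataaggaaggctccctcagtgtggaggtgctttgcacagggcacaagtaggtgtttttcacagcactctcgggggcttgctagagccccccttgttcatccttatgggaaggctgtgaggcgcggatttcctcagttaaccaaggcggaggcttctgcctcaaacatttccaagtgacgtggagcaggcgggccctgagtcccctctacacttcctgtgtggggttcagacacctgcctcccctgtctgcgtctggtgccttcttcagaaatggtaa
Pigt (chr2:164497275-164497574, plus strand), which encodes a subunit of the GPI transamidase, ranked higher on day 8 than on day 4 and holds an ETS core, an NF-Y box and, past the start, a YY1 core.
Pigt: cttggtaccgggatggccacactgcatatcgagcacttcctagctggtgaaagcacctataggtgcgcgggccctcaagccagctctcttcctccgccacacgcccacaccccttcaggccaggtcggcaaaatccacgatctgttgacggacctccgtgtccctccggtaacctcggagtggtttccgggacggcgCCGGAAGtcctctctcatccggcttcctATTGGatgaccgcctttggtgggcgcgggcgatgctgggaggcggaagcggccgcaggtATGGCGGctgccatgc
B4galt5 (chr2:167349129-167349428, minus strand), a galactosyltransferase gene, ranked lower on days 8 and 21 and holds 7 GC boxes and no NF-Y box.
B4galt5: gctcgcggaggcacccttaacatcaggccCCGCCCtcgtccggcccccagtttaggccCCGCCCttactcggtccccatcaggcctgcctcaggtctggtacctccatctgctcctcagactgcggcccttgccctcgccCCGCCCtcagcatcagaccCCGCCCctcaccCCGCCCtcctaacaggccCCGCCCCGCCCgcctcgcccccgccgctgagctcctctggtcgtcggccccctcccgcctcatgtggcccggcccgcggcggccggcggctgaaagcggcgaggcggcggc

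The lists held 19499 to 22250 peaks on day 4, 47513 to 50835 on day 8 and 46492 to 51671 on day 21 on the chromosomes used. The lists carry no read totals. The summit pileup, the number of tags covering the highest point of a peak, was recovered from the deposited fold enrichment and p-value, and over the gene-end regions the median summit held from 34 to 41 tags in the day 4 lists, from 70 to 79 in the day 8 lists and from 69 to 81 in the day 21 lists. Ranked by fold enrichment, day 4 lists correlated at 0.849 to 0.862 with each other and at 0.727 to 0.769 with later lists. Day 8 lists correlated with day 21 lists at 0.904 to 0.922, above the day 4 lists among themselves. By summit pileup, same-day lists were more alike than lists of different days. Over the gene-end regions the pileups of 2 lists of the same day gave a chi-square per region of 0.391 to 0.448. Lists of different days gave 0.725 to 0.903. Independent counts at a fixed point would give 1. Each pileup is the highest of its region in its list, and different days also lay below 1, so 1 is no firm mark of sampling noise here. Whether separate animals gave the libraries of a day is not stated. P-values below therefore describe these 9 lists, and a count with each day taken as 1 library is given beside them.

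Nearly all regions lay at gene starts, not at the other end of the gene. The end of a gene lay inside the region itself for 7105 of the 8003 (88.8%). For 6423 regions the RefSeq promoter table told both kinds of end apart, and 6230 of them (97.0%) were near a start while 193 (3.00%) were near the far end only. Of the 6442 regions with a known start, 846 (13.1%) held or neighboured starts of genes on opposite strands, as at divergent promoters. A single gene was in reach for 6441 regions, a pair for 1518 and 3 or more for 44.

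Within these regions the median summit sat just upstream of the start on every day. For 4819 regions with exactly 1 listed start, the median summit was 42, 44 and 42 bases upstream in the day 4 lists, 40, 40 and 39 in the day 8 lists and 41, 40 and 40 in the day 21 lists. Between 71.3% and 74.9% of the summits lay upstream of the start in a list, 61.1% to 66.7% within 100 bases of it and 84.9% to 86.8% within 250 bases. The SD of the summit position over the 9 lists was 31.7 bases for the median gene-end region, against 32.7 bases for the always-called regions away from gene ends, so position was about equally variable in both. It was under 50 bases in 67.7% of the gene-end regions. Within a day the SD of the median gene-end region was 26.9 bases on day 4, 13.5 on day 8 and 14.6 on day 21.

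**Figure D1:**
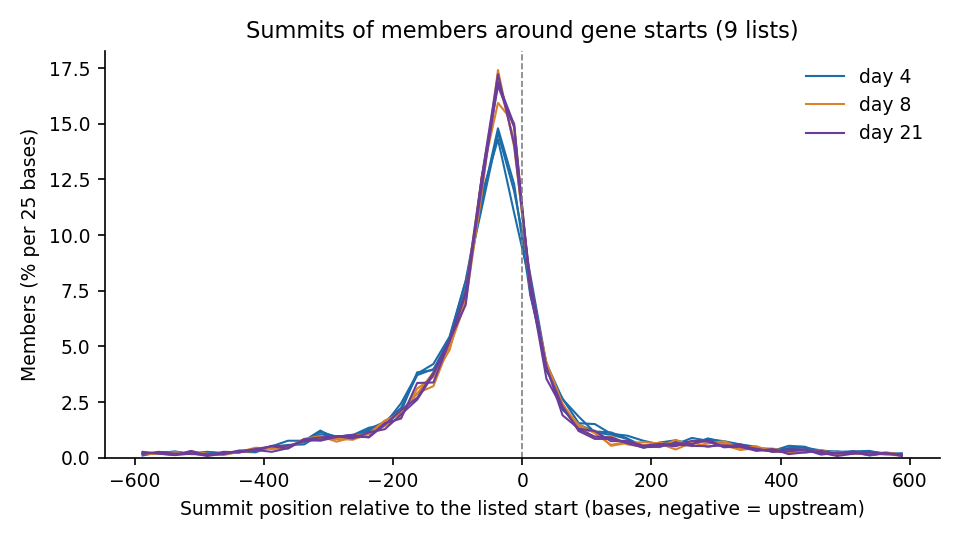
Position of the peak summit relative to the listed gene start (x axis, bases) for 4819 always-called gene-end regions with 1 listed start, as percent of regions per 25 bases (y axis), 1 line per list, coloured by day (members in the plots are these regions). All 9 lines peak just upstream of the start, with medians between 39 and 44 bases upstream.

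The merged regions were 1079 bases wide at the median, with quartiles of 898 and 1296 bases, against a median of 800 bases for the always-called regions away from gene ends. A single peak per list covered 68.1% of the gene-end regions and 81.2% of the others. Strength decreased with distance from the gene end. Ranked by fold enrichment among the 15109 regions called in all lists, from 0 for the weakest to 100 for the strongest, the regions with the gene end inside had median percentile ranks of 64.2, 58.9 and 56.3 on days 4, 8 and 21, and the 373 regions more than 500 bases away had 36.7, 33.9 and 30.9. The distance limit itself cut through a continuum: the last regions inside it were at Zfp777 and Taf9b (999 bases) and Trp53rkb (1000 bases), the first outside it at Fbxo7 (1002 bases), Rnf145 (1003) and Lcn4 (1009). The other limit was set by day 4. Of 708 gene-end regions called in 8 lists, 707 lacked a peak in a day 4 list, and their median fold enrichment was 4.03, 6.25 and 6.01 on days 4, 8 and 21, against 6.32, 9.43 and 9.05 in the regions called in all 9.

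The share of regions near gene ends depended on how many lists called a region. It was 10.8% to 12.7% among regions called in 1 to 6 lists, 17.5% in 7, 21.2% in 8 and 53.0% in all 9. A further 700 of the 7106 always-called regions away from gene ends (9.85%) held a listed start of a protein-coding gene, because the gene table gives a single span per gene and alternative starts inside it are not ends.

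At least 1 always-called region lay near an end of 9083 of the 21631 protein-coding genes (42.0%). By chromosome this share ran from 24.8% on X to 50.5% on chromosome 8. Genes of the basic machinery of the cell were covered far more completely. All 24 splicing genes had one, as did 23 of 24 cell division genes, where Tyms, which makes thymidylate, was the exception with 2 of 3 day 4 lists. So did 35 of 38 ribosomal protein genes, 22 of 25 proteasome genes, 22 of 25 respiratory chain genes, 17 of 21 genes of glycolysis and nutrient uptake, and 19 of 24 genes of chromatin and DNA methylation regulators. Some of the uncovered genes had an alternative start in an always-called region that was no end of the gene in the table: 3 glycolysis genes (Hk1, Aldoa and Ldha), the DNA methyltransferase genes Dnmt1 and Dnmt3a, the ribosomal protein gene Rps2 and the proteasome gene Psma6. The lists were written with earlier results of these data known, so these shares describe and test nothing.

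T cell lists were covered less completely. Of the 19 matched T cell identity genes 13 had an always-called region, among them Cd3e, Cd3d and Cd3g, which encode chains of the T cell receptor complex, Cd8a and Cd8b1, which encode the CD8 co-receptor, and Bcl11b, a factor of T cell commitment. Cd247, the kinase gene Lck and Cd6 missed a single day 4 list, and Thy1, Ptprc and Skap1 had peaks in all lists of days 8 and 21 and in none of day 4. A listed start of Lck did lie in an always-called region. The memory and stemness list had 12 of 22: Ccr7, Klf2 and Bach2 were among them, while Tcf7 itself and Il7r, which encodes the IL-7 receptor, had no gene-end region called on day 4. Lef1, a partner of TCF-1, had no region near its gene ends, but a listed start of it lay in an always-called region.

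The effector list had 9 of 20 genes covered, close to the 42.0% of all protein-coding genes. Ifng, Prf1, Fasl and Nkg7, which encode interferon-γ, perforin, the Fas ligand and a cytotoxic granule protein, had a region in all lists. Tbx21, which encodes T-bet, Gzmb, the granzyme B gene, Cx3cr1 and Ccl5 had peaks in all 3 lists of day 8 and of day 21 and in none of day 4. Of the inhibitory receptor and exhaustion list 11 of 20 were covered. They included Ctla4 and Tigit, which encode inhibitory receptors, Tox, the gene of a factor of exhausted T cells, and the receptor-induced factor gene Nr4a1. Pdcd1, the gene of PD-1, was called in 1 day 4 list and in all later lists, Lag3 likewise, and Havcr2, the TIM-3 gene, in none of day 4 and all later lists. Cd160 had no region near its gene ends, but a listed start of it lay in an always-called region. The interferon response list had 14 of 21, including Stat2, Irf1 and Irf7, and the immediate early list 16 of 19, including Fos, Jun, Junb and Myc.

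Markers of other cell types rarely had an always-called region. The counts were 0 of 10 B cell genes, 0 of 12 stromal and endothelial genes, 1 of 12 myeloid and dendritic genes (Itgam), 1 of 8 NK genes (Itga2), 1 of 8 CD4 and regulatory T cell genes (Ikzf2), 1 of 8 erythroid and platelet genes (Klf1), 1 of 10 hepatocyte genes (Apoa2), 2 of 10 neuron genes (Syn1 and Neurog2) and 2 of 9 melanocyte genes (Mitf and Pmel). The defining genes Ms4a1, Pax5, Foxp3, Lyz2, Adgre1, Pecam1, Tyr and Dct had no called region near their ends in any list. Regions called in 1 to 8 lists lay near 5 of the 10 B cell genes, 5 of the 12 myeloid, 3 of the 12 stromal, 3 of the 8 NK, 3 of the 8 CD4 and 2 of the 9 melanocyte genes. Most were in later lists only, such as Cd79a in 1 day 8 list and all day 21 lists and Spi1 in all lists of days 8 and 21, but Cr2, Cebpa and Klre1 were also called in 2 day 4 lists and Zbtb7b, Col1a1 and Mlana in 1. Those regions are no part of the set described here, and a share of other cells in the sorted samples was not tested.

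**Figure D2:**
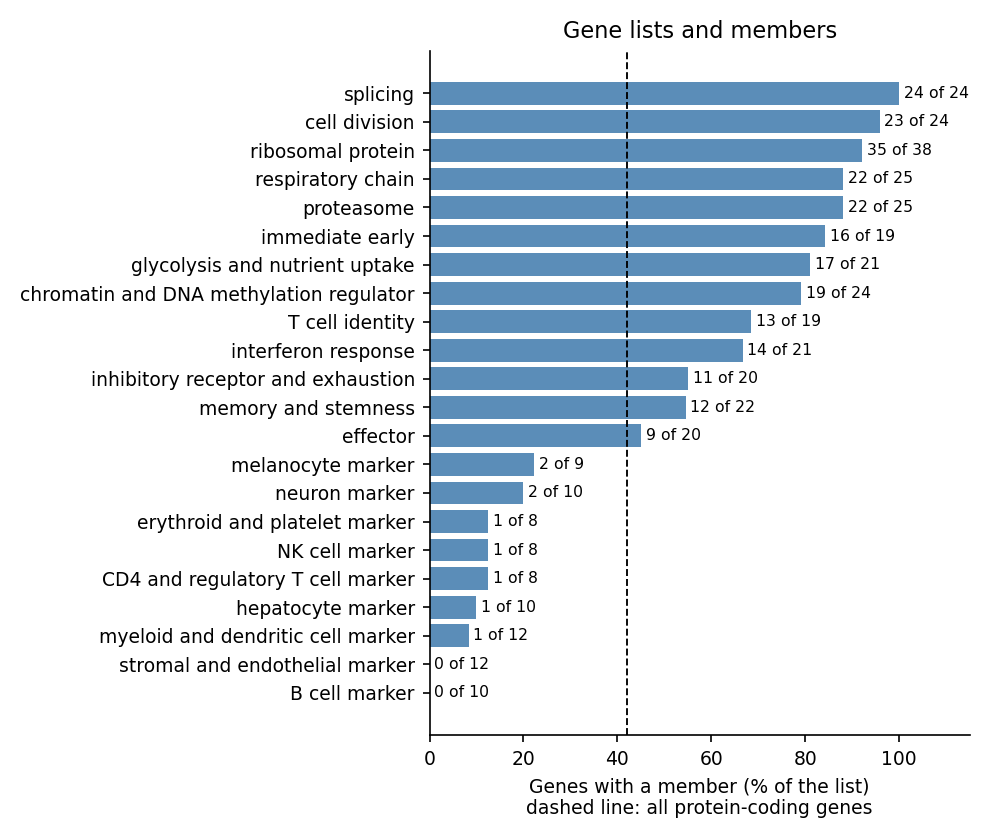
Percent of the matched genes of each list (bars, with the count of genes) that have an always-called region within 1 kb of a gene end. The dashed line marks the 42.0% of all protein-coding genes. The lists of basic cell machinery lie at 79.2% or more and the markers of other cell types at 22.2% or less.

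The promoters in these regions were of the CpG island kind. RefSeq gave 21045 windows of 300 bases for 17274 protein-coding genes, and 6965 of the windows lay wholly inside an always-called gene-end region. These 6965 windows belonged to 6239 genes. Windows of nearby starts can overlap, so shares of windows count some sequence more than once. The median observed to expected CpG ratio of the 6965 windows was 0.834, against 0.574 over all windows and 0.232 over the 9670 windows that touched no called region. A ratio of at least 0.6 was found in 87.1% of them, against 48.1% of all windows and 13.8% of those with no region. The median GC content was 63%, 56.7% and 49.3% in the same order. By gene list the median CpG ratio was lowest in the 7 windows of T cell identity genes, at 0.183, followed by 0.385 in the 8 windows of effector genes and 0.498 in the 14 of interferon response genes. It was highest in the splicing list, at 0.961.

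Several motifs of general promoter factors were more frequent in the promoters inside these regions than over all windows, counted as the share of windows with at least 1 match on either strand. The GC box was in 73.3% of them, against 46.7% of all windows and 21.2% of windows with no region. The ETS core, bound by GABPA and related factors, was in 24.5%, 11.7% and 2.49%. The YY1 core was in 10.9%, 5.29% and 1.26%, and the NRF1 core in 8.21%, 4.48% and 1.72%. The element CTCGCGA, a Kaiso-type promoter element, was in 5.46%, 2.63% and 0.59%. These motifs are rich in C and G, as are the windows, and base composition was not matched. The TATA box went the other way, with 4.95%, 12.7% and 20.5%, as did AP-1 (TGANTCA), with 3.42%, 7.04% and 10.4%, and the RUNX motif TGTGGTT, with 3.27%, 4.74% and 6.16%. A match is a match of letters and no measured binding.

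**Figure D3:**
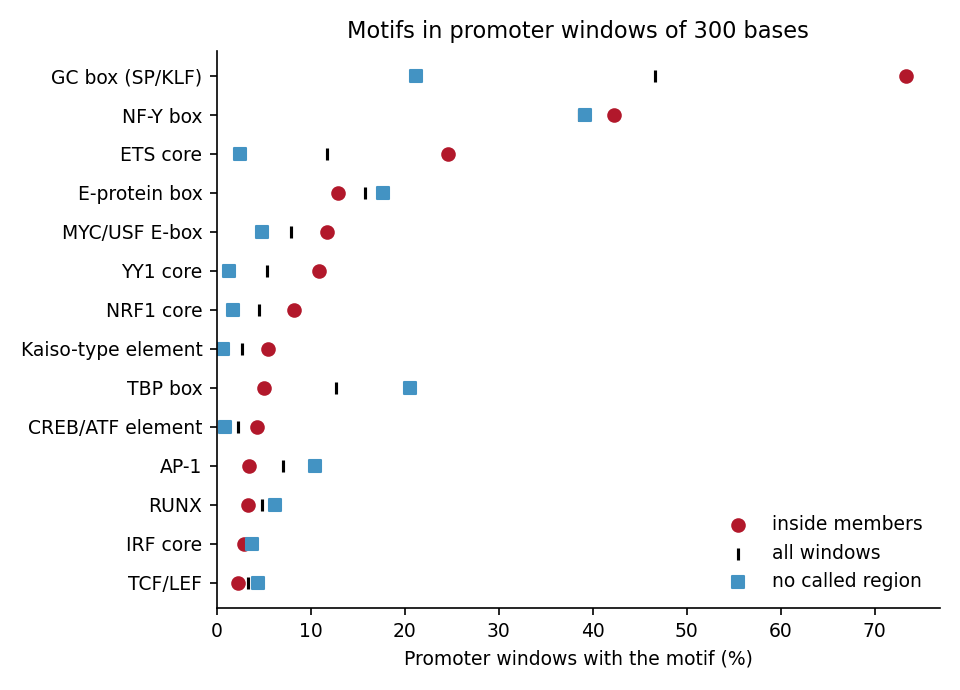
Percent of promoter windows of 300 bases that hold each of 14 motifs (x axis), for windows inside always-called gene-end regions (red circles), all protein-coding windows (black ticks) and windows with no called region (blue squares). The GC box and the ETS core are far to the right in the always-called regions, the TBP (TATA) box far to the left, and the NF-Y box nearly level. Base composition differs between the sets of windows and was not matched.

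The NF-Y box behaved differently from the others. Over all promoters inside these regions its share of 42.3% was close to the 38.5% of all windows and the 39.1% of windows with no region. Median GC content differed between these sets (63%, 56.7% and 49.3%) and was not matched. How the NF-Y shares compare at equal base composition was therefore not tested. Within the set of always-called gene-end regions, the share of the NF-Y box followed the strength of the region. With the windows split into 4 groups of about equal size by the mean pileup rank of their region, CCAAT was in 27.3%, 34.0%, 47.4% and 60.5% from the weakest to the strongest group. With groups by fold-enrichment rank the shares were 27.4%, 36.2%, 43.7% and 61.9%. The same held on each day: by the pileup rank of that day, the weakest and strongest groups had 28.9% and 61.4% on day 4, 27.7% and 61.7% on day 8 and 27.6% and 59.9% on day 21. GC content was nearly the same in the 4 pileup groups, from 62.7% to 63.3%. The days share the same windows and most of the ranking, so they are no independent repeats.

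None of the other 5 motifs shown with it spanned such a range by pileup. From the weakest to the strongest group, the GC box went from 70.4% to 77.3%, the ETS core from 21.4% to 24.0% with its highest share, 27.2%, in the third group, the YY1 core from 10.9% to 10.2%, the NRF1 core from 9.07% to 5.51% and the TATA box from 6.08% to 3.04%. By fold-enrichment rank the ETS core also went up, from 17.4% to 30.3%, and the GC box down, from 77.8% to 70.1%, while median GC content went from 66.7% to 60.3%. Each motif also had its own place. Matches to the NF-Y box were most frequent 75 to 50 bases upstream of the start, with 857 of 5053 matches (17.0%) in that bin of 25 bases. ETS, NRF1 and GC box matches were most frequent in the 25 bases before the start, with 19.3%, 17.3% and 15.1% of their matches. The YY1 core peaked past the start, with 246 of 798 matches (30.8%) 25 to 50 bases downstream. The 361 TATA matches in these regions had 2 places of nearly equal weight, the far upstream edge of the window with 55 and 50 to 25 bases upstream of the start with 54, while in windows with no called region 21.6% of them fell 50 to 25 bases upstream of the start, the classical TATA position.

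**Figure D4:**
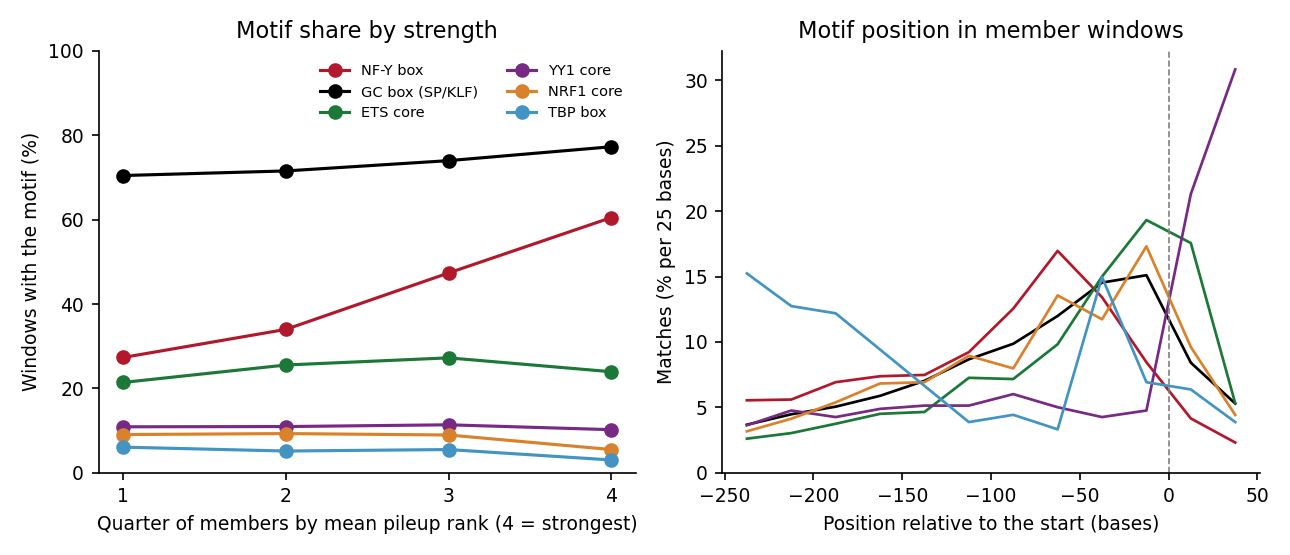
Left, percent of promoter windows with each motif in 4 groups of the always-called gene-end regions, from weakest (1) to strongest (4) by mean pileup rank. Right, position of the matches relative to the start, as percent of a motif's matches per 25 bases in the same windows. The NF-Y box goes from 27.3% to 60.5% across the groups, and the YY1 core peaks downstream of the start.

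The motifs were also counted by gene list, beside shares over all windows inside these regions of 42.3% for the NF-Y box and 24.5% for the ETS core. Of the 19 windows of cell division genes inside these regions, 18 held an NF-Y box. Of the 22 windows of ribosomal protein genes, 7 held the element CTCGCGA, which was in 5.46% of all windows inside the regions, and 8 an ETS core. Of the 22 splicing gene windows, 13 held an NF-Y box and 9 an ETS core. The ISRE core, the IRF site of interferon-induced genes, was in 5 of 14 interferon response windows and in 2.81% of all windows inside the regions. No window of the T cell identity (7), memory (7), effector (8) and chromatin regulator (13) lists held the ETS core CCGGAAG. Other forms of ETS sites were not searched. The 14 interferon response windows came from 10 genes, and overlapping windows can count the same site more than once. These are small counts, and no test of a difference between lists was made.

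The strongest regions were the same on all days by construction of the rule that names them, the highest lowest fold-enrichment rank over the 9 lists. Hltf, which encodes a DNA translocase of replication stress, had percentile ranks of 99.7, 99.7 and 99.8 on day 4, 99.7, 99.6 and 99.8 on day 8 and 99.4, 99.6 and 99.5 on day 21. The others were at Golph3l, Haus7, which encodes an augmin subunit of the mitotic spindle, Armc1, Gatb, Cdc25c, the gene of a phosphatase that starts mitosis, Zfp983, Cep20, a centrosomal protein gene, Gm14410 and the divergent pair 2310022A10Rik and Pld3. Their lowest rank in any list was 98.4 or more. By summit pileup, a ranking added after the values were seen, the highest was H2-K1, a classical MHC class I gene, with 195, 195 and 212 tags on day 4, 257, 244 and 260 on day 8 and 253, 241 and 260 on day 21. Next by that rule were Hjurp, which encodes a chaperone of the centromeric histone, Sel1l, of protein degradation from the endoplasmic reticulum, and Stt3a, of N-glycosylation. H2-K1 belongs to a family of similar genes, and the labels and lists do not tell how reads that match several places were handled.

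The gene-end regions made up a smaller share of the later lists, which are longer. They held 40.3% to 46.4% of the peaks of a day 4 list, 16.8% to 18.2% on day 8 and 16.4% to 18.7% on day 21. Of the 1000 peaks of a list with the highest fold enrichment, 80.1%, 80.0% and 78.7% were in these regions on day 4, 67.1%, 65.1% and 63.6% on day 8 and 59.2%, 58.4% and 53.7% on day 21. No 2 days overlapped, but the exact permutation test of 3 against 3 lists (two-sided) can give no p below 0.1, the value it gave for each pair of days. By summit pileup the order was another, with 79.5% to 80.6%, 82.7% to 84.3% and 78.4% to 78.5%.

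The same contrast held for the rank of the typical region. The median percentile rank by fold enrichment was 62.2, 61.8 and 61.7 in the day 4 lists, 57.3, 56.7 and 56.2 in the day 8 lists and 54.7, 54.4 and 53.8 in the day 21 lists (exact permutation p = 0.1 for each pair of days). By summit pileup it was 63.3, 62.8 and 62.7, then 63.6, 63.4 and 62.4, then 59.9, 59.8 and 58.3, so that day 8 overlapped day 4 (exact permutation p = 0.8) and day 21 lay below both (p = 0.1). Fold enrichment divides the pileup by the local background around the peak. That background, as a multiple of the smallest background in the list, was 1.69 to 1.74 at the median gene-end region on day 4, 2.86 to 3.01 on day 8 and 2.68 to 2.83 on day 21, and at the regions away from gene ends 1.43 to 1.46, 2.34 to 2.43 and 2.33 to 2.43. Between days 4 and 8 the background was higher where the fold ranks were lower, and between days 8 and 21 both were lower at the gene-end regions. Its part in the fold ranks was not tested. Median peak width was 596 to 669 bases on day 4, 918 to 939 on day 8 and 919 to 966 on day 21. It was larger along with the background on day 8, and was not lower with it on day 21.

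Day 8 was compared with day 4 region by region, to see which of these promoters changed place. A region was called when limma's adjusted p over all 15109 regions was 0.05 or less and its mean percentile rank differed by at least 10 points. By fold enrichment 641 of the 8003 gene-end regions (8.01%) were higher on day 8, where 12.3% of all regions tested were, and 1415 (17.7%) were lower, where 14.9% of all were. The median difference was −3.04 points, against −1.06 over all regions. Without the third day 8 list 405 were higher and 896 lower, and without the second 417 were higher. Because a call in every day 4 list was required, a region low on day 4 could only enter the set if it cleared the threshold there.

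Most of these calls were not shared by the summit pileup. Ranked by pileup, an alternative chosen after seeing the data, 454 were higher (5.67%, where 7.14% of all regions were) and 511 lower (6.39%, where 7.41% of all were). Called by both in the same direction were 200 higher (2.50%, where 3.51% of all regions were) and 212 lower (2.65%, where 3.12% of all were), shares below those of all regions tested. At the 1415 regions lower by fold the local background on day 8 was 1.53 times that of day 4 at the median and the pileup 1.76 times. At the 641 higher by fold these ratios were 1.24 and 2.42, and at those not called 1.39 and 2.00. The regions called lower by fold were also wider, at 1285 bases, than the 899 bases of those called higher by fold. At the regions called by both ranks the order of the background was the other way. Its median ratio was 1.40 at the 200 higher and 1.34 at the 212 lower, and the pileup ratios there were 2.78 and 1.53.

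A narrower count came from counting error alone. With the 3 lists of a day counted as 1 library and the counting error of the mean pileup, no gene-end region was higher on day 8 and 4 were lower at an adjusted p of 0.05 or less (15 and 79 at an unadjusted p of 0.05 or less). Over all 15109 regions 109 were lower (0.721%), none was higher, and 49 higher and 255 lower were at an unadjusted p of 0.05 or less. Of the gene-end regions 99.9% stayed within 2-fold of the median pileup ratio, and of all regions 99.2%. The counting error was 0.29 on the log2 scale for the median region. It assumes the noise of independent counts, and the summit pileups of same-day lists scattered less than that. Being the highest of their regions, these pileups need not scatter as such counts do.

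**Figure D5:**
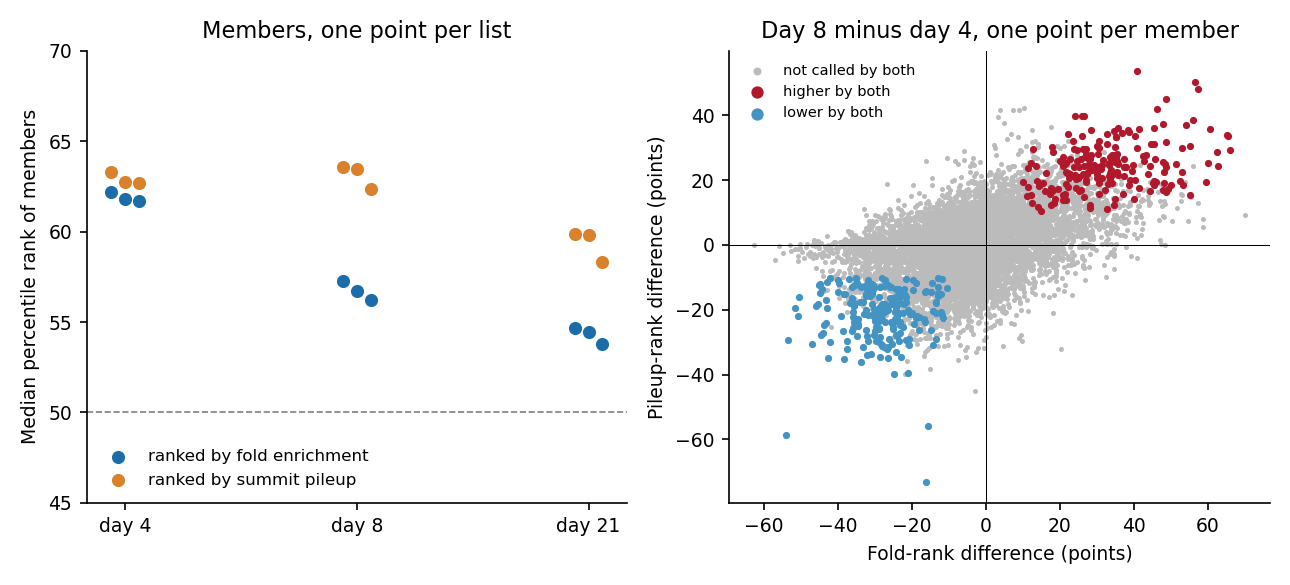
Left, median percentile rank of the 8003 gene-end regions in each of 9 lists, by fold enrichment (blue) and by summit pileup (orange), with the dashed line at 50, the middle of the ranked regions. Right, day 8 minus day 4 difference in percentile rank by fold enrichment (x axis) and by summit pileup (y axis), 1 point per region, with the 200 regions higher by both in red and the 212 lower by both in blue. Fold medians are lower on each later day, pileup medians are level between days 4 and 8, and many points with a fold difference lie close to 0 in pileup.

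The largest higher differences by fold rank were at weak day 4 peaks. Klra1, a Ly49 receptor gene of a family of similar genes, had fold ranks of 10.6, 11.5 and 8.62 on day 4, 78.6, 67.9 and 94.8 on day 8 and 69.4, 91.0 and 74.9 on day 21. The groups of day 4 and day 8 did not overlap (difference 70.2 ± 8.24 SE, adjusted p = 0.000304), and the summits behind them held 14, 14 and 16 tags on day 4 and 36, 34 and 48 on day 8. Its pileup rank did not pass on day 8 (difference 9.20, adjusted p = 0.137). Mrps21, a mitochondrial ribosomal protein gene, had fold ranks of 41.0, 12.2 and 15.2 on day 4 and 73.5 to 96.5 on day 8 (65.6 ± 8.71, adjusted p = 0.000564), and by pileup rank it rose by 33.5 points (adjusted p = 0.00508). Pigt, whose sequence is given above, had 11.9, 18.3 and 52.1 on day 4 and 89.9, 90.1 and 84.7 on day 8 (60.8 ± 9.11, adjusted p = 0.000996), with 35.7 points by pileup (adjusted p = 0.0034). Its day 8 lists all lay above its day 4 lists, one of which stood apart from the other pair.

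The rest of the 8 largest higher differences were at Vps51, of a tethering complex of vesicles, Rsph9, of the radial spokes of cilia, Nek9, a mitotic kinase gene, Cblc, a ubiquitin ligase gene, and Inhbe, an inhibin subunit gene, and ran from 59.5 to 65.9 points. All of these 5 also rose by pileup rank, by 19.6 to 29.4 points. Among regions picked for passing by both ranks after their values were seen, Nsrp1, a splicing regulator gene, rose by 57.5 points in fold rank and 48.3 in pileup rank, and Gle1, of mRNA export, by 56.5 and 50.2.

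The largest lower differences by fold rank were mostly at regions among the highest by pileup, where the pileup rank is at its ceiling and can show little change. H2-K1 had fold ranks of 87.1, 88.0 and 85.7 on day 4 and 31.3, 20.2 and 21.2 on day 8, with no overlap (difference −62.7 ± 6.70 SE, adjusted p = 0.000267). Its pileup rank was 99.9 or more in every list, while its mean local background in tags went from 24.1 on day 4 to 34.7 on day 8, with 34.2 on day 21. Relative to the median region its pileup was lower on day 8, by a log2 difference of −0.671 (counting-error adjusted p = 0.000257). Pdcd10, a gene of vascular and Golgi signalling that shares its region with Serpini1, had fold ranks of 96.2, 95.1 and 90.3 on day 4 and 41.4, 32.0 and 40.2 on day 8 (−56.0 ± 6.35, adjusted p = 0.000289), and pileup ranks of 99.7 and 99.2. Lnpep, which encodes an aminopeptidase, Tmem123 and Cic, a transcriptional repressor gene, showed the same combination, with fold differences of −57.1 to −53.0 and pileup differences of −4.51 to −0.093.

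In 2 of the 8, fold and pileup rank fell together. Asmt, which encodes an enzyme of melatonin synthesis, lies in the pseudoautosomal end of X, and had summits of 35, 31 and 43 tags on day 4 and 31, 32 and 26 on day 8 while the typical summit doubled. It fell by 54.1 points in fold rank (adjusted p = 0.000415) and by 58.5 in pileup rank (adjusted p = 9.05e-07). The region shared by the histone genes H3c7 and H2bc9 had fold ranks of 93.1, 82.2 and 85.7 on day 4 and 34.2, 30.1 and 36.5 on day 8 (−53.4 ± 7.77, adjusted p = 0.000869), and fell by 29.4 points by pileup (adjusted p = 0.00655). Histone genes are near-identical copies, so reads may be split among them. Ulk1, an autophagy kinase gene, Rtn3, Tspan14 and Eps15, of endocytosis, fell by both ranks too, by 47.1 to 51.7 points in fold rank, and were picked after their values were seen.

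The 4 gene-end regions lower on day 8 beyond counting error, where 0.721% of all regions were, were at Oasl1, LOC100504180, H2-K1 and Asmt. Oasl1, an interferon-induced gene that limits interferon production, was the clearest. Its fold ranks were 99.9, 99.8 and 99.9 on day 4, 57.5, 54.6 and 52.5 on day 8 and 69.6, 68.8 and 77.3 on day 21. Its summits held 119, 99 and 120 tags on day 4 and 97, 100 and 102 on day 8, so that relative to the median region its pileup was lower by a log2 difference of −1.19 (counting-error adjusted p = 1.33e-06) on day 8 and −1.03 (adjusted p = 3.35e-05) on day 21. It was named after its values were seen.

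Of the other interferon response genes, Ifit2, which encodes an inhibitor of viral translation, had fold ranks of 31.3, 26.5 and 24.9 on day 4 and 79.7, 56.7 and 51.5 on day 8, and rose by 35.1 points by fold (adjusted p = 0.0081) and 30.1 by pileup (adjusted p = 0.00397). Bst2, the tetherin gene, rose by 35.0 points by fold (adjusted p = 0.0145), and its pileup difference of 18.9 did not pass (adjusted p = 0.111). Of the 14 regions of that list, 2 were higher by fold and 1 was lower, near the 12.3% and below the 14.9% of all regions, with a median difference of −1.30 against −1.06 over all regions.

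Immediate early genes, which respond within minutes to receptor signals, showed the widest gap between the 2 rankings. The 21 regions of 16 of these genes had median pileup ranks of 78.7, 82.4 and 76.3 on days 4, 8 and 21, and median fold ranks of 10.5, 3.84 and 2.97. By fold, 8 of the 21 were lower on day 8 and 9 were lower on day 21, and none was higher on either day, where 14.9% and 16.6% of all regions were lower. A call needed a fall of at least 10 points, so regions with a day 4 rank under 10 could not be called lower. Lower by both ranks were 0 on day 8 and 1 on day 21, where 3.12% and 3.31% of all regions were. Jun, the gene of an AP-1 subunit, had fold ranks of 43.7, 55.0 and 20.6 on day 4, 9.41, 5.00 and 8.03 on day 8 and 4.48, 5.57 and 2.94 on day 21, while its mean summit pileup rank was 98.3, 95.1 and 98.8 and its mean local background 14.1, 20.5 and 27.7 tags. Klf6, of the same list, and Klf2, which encodes a factor of naive T cell homing, were lower by fold on day 8, by −40.1 ± 6.59 (adjusted p = 0.00149) and −37.0 ± 7.66 points (adjusted p = 0.00469). Their pileup ranks differed by −2.01 and −2.34, and neither passed.

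Among the fixed T cell genes, Cd3e (chr9:45009162-45010143) had fold ranks of 7.70, 18.9 and 24.0 on day 4, 26.8 to 28.8 on day 8 and 42.7, 31.1 and 28.4 on day 21. Its day 8 lists all lay above its day 4 lists, but the fold difference did not pass (adjusted p = 0.21), while by pileup it rose by 21.9 points (adjusted p = 0.036). Cd8a (chr6:71373233-71373637) was among the weakest regions by fold, with ranks of 3.44 to 9.31 on day 4, 4.33 to 6.42 on day 8 and 0.923 to 2.68 on day 21. Ccr7, which encodes the receptor that keeps T cells in lymph nodes, was lower by fold on day 8 (−34.6 ± 6.93 points, adjusted p = 0.00388), with a pileup difference of −1.14 that did not pass. Id2 and Foxo1 were lower by fold as well, by −36.7 and −21.0 points, with pileup differences of 3.25 and −2.53. Bach2, which encodes a repressor that holds back effector genes, passed in neither ranking (−3.31 by fold, 15.4 by pileup).

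The gene lists differed in how many of their regions were called between days 4 and 8. These counts are to be read against the 14.9% of all regions lower and 12.3% higher by fold, and the 3.12% and 3.51% by both ranks. Of the 38 regions of ribosomal protein genes, 4 were lower by fold and 1 by both ranks. Of the 28 of splicing genes 5 were lower and 2 higher by fold, and of the 25 of cell division genes 4 were lower. These shares of lower regions were near that background. No region of the ribosomal protein, cell division, memory or chromatin regulator lists was higher by fold, where 12.3% of all regions were. Of the 12 regions of memory and stemness genes 6 were lower by fold and 2 by both, with a median difference of −17.7 points by fold and 0.38 by pileup. The 14 T cell identity regions had medians of −9.18 by fold and 8.43 by pileup, with 2 lower and 1 higher by fold. Of the 20 regions of chromatin and DNA methylation regulators 7 were lower by fold and 2 by both, with a median difference of −16.3 points by fold and −5.95 by pileup. Ctcf, the gene of the insulator protein, was among the 7 (−36.1 ± 6.43 points, adjusted p = 0.00222), with no passing change by pileup (−1.84). Rptor, a subunit of the mTORC1 growth kinase, rose by both ranks (35.2 points by fold, adjusted p = 0.00622, and 26.8 by pileup, adjusted p = 0.0167). Pkm, of glycolysis, was lower by fold (−37.0 ± 6.98, adjusted p = 0.00299) and not by pileup (1.19).

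The promoters that changed by both ranks on day 8 differed in their motifs. Of the 151 windows in regions higher by both, 33.8% held an ETS core, against 13.6% of the 176 windows in regions lower by both and 24.5% of all windows inside the gene-end regions. The YY1 core was in 14.6% and 5.11%, against 10.9%. The NRF1 core went the other way, with 4.64% and 15.9%, against 8.21%. The NF-Y box was below the overall 42.3% in both, with 33.8% and 27.3%. These sets were chosen by their ranks, and the shares are given with no test.

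Between days 8 and 21 the rankings differed in how much they called. By fold enrichment no gene-end region was called, where 0.0132% of all regions were higher and none lower. By pileup 336 (4.20%) were higher, where 7.78% of all regions tested were, and 710 (8.87%) were lower, where 6.49% of all were, and none passed by both ranks. At an unadjusted limma p of 0.05 or less, 188 gene-end regions were higher and 484 lower by fold, of 760 and 739 over all regions. With each day as 1 library none was beyond counting error, and 24 higher and 34 lower were at an unadjusted p of 0.05 or less, of 205 and 42 over all regions. The median ratio of day 21 to day 8 pileup at the gene-end regions was 0.984.

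Day 21 was also compared with day 4, with the day 4 lists that the first comparison used, so the pair of comparisons is not independent. By fold 592 of the gene-end regions (7.40%) were higher, where 13.9% of all regions tested were, and 1701 (21.3%) were lower, where 16.6% of all were. Without the third day 21 list 367 were higher. By both ranks 94 (1.17%) were higher, where 4.47% of all were, and 310 (3.87%) were lower, where 3.31% of all were. Beyond counting error 3 were lower, Oasl1, LOC100504180 and H2-K1, where 0.649% of all regions were lower, and none was higher. At an unadjusted p of 0.05 or less 56 were lower and 6 higher, of 210 and 100 over all regions.

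Among the regions that passed by both on day 21, Tnfrsf13c, which encodes the BAFF receptor known from B cells, had fold ranks of 14.8, 1.63 and 5.45 on day 4, 68.9, 34.5 and 51.4 on day 8 and 72.8, 62.8 and 69.4 on day 21 (61.0 ± 8.67 points, adjusted p = 0.000638, and 15.7 by pileup, adjusted p = 0.042). Its later lists all lay above its day 4 lists. Of the 10 B cell genes of the marker list none had an always-called gene-end region, and 5 had a region called in 1 to 8 lists, as given above. An always-called region needs a peak in every day 4 list, so the first count does not bear on later signal. A share of B cells in the samples was not tested. Ildr1, Dhrs9, a retinol dehydrogenase gene, and the divergent pair Fastkd2 and Mdh1b rose by both ranks as well, by 56.7 to 60.4 points by fold. Zc3hc1, of the nuclear pore basket, had the largest fold difference (70.3 ± 6.87, adjusted p = 0.00014), and its pileup difference of 13.5 did not pass (adjusted p = 0.119). Fasl rose by 40.7 points by fold (adjusted p = 0.0266) and 15.8 by pileup (adjusted p = 0.0493), although its fold ranks of 16.4, 1.96 and 39.9 on day 4 overlapped the 38.7, 78.8 and 62.7 of day 21.

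Among the regions lower by both ranks on day 21, Eif5a, a translation factor gene, had fold ranks of 93.5, 86.2 and 89.4 on day 4, 41.5, 36.3 and 38.6 on day 8 and 32.3, 29.7 and 25.4 on day 21. The 3 days did not overlap, and day 21 differed from day 4 by −60.6 ± 6.34 points by fold (adjusted p = 0.000159) and −22.9 by pileup (adjusted p = 1.98e-06). Mki67, the gene of the proliferation marker Ki-67, had 71.5, 72.5 and 74.8 on day 4, 72.5, 61.0 and 42.8 on day 8 and 35.8, 26.4 and 41.3 on day 21. It was lower on day 21 by both (−38.5 ± 8.09 by fold, adjusted p = 0.00424, and −24.7 by pileup, adjusted p = 0.00805) and passed neither on day 8. By summed peak width Mki67 went the other way, 30.1 points higher on day 21 (adjusted p = 0.013). Txn1, the thioredoxin gene, picked after its values were seen, and B4galt5 fell by both ranks too, by 53.5 and 56.5 points in fold rank.

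On day 21 against day 4, the counts by list are to be read against the 16.6% of all regions lower and 13.9% higher by fold, and the 3.31% and 4.47% by both ranks. Of the 38 regions of ribosomal protein genes 6 were lower by fold and 4 by both ranks, and of the 22 of proteasome genes 6 and 4. No region of these lists was higher by fold, where 13.9% of all regions were. Of the 25 of cell division genes 5 were lower by fold and 2 by both, with 2 higher by fold and 1 by both. Of the 22 of respiratory chain genes 2 were lower and 3 higher by fold, and of the 10 of effector genes 2 were lower and 2 higher, the latter by both ranks. Of the 20 regions of chromatin and DNA methylation regulators 7 were lower by fold and 2 by both ranks, and of the 12 of memory and stemness genes 6 and 0. None of either list was higher by fold. Of the 18 of glycolysis and nutrient uptake 7 were lower by fold, 2 by both ranks, and 1 was higher by fold. The median pileup difference was −12.1 points for the chromatin regulator list, −11.3 for the proteasome list, −5.82 for the ribosomal protein list and −1.16 for the cell division list. It was −0.12 over all regions and −2.01 over all gene-end regions. These lists are small, and no test of a list was made.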

How the data were processed

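ATAC-seq was measured in 9 libraries, 3 for each of days 4, 8 and 21. The submitters' processing notes name mm10 and the tools deepTools 2.0, MACS2, Picard and BWA 0.7.15 without their roles. Read filters, any Tn5 shift and peak-calling settings are not given there. The authors deposited 1 peak list per library, so peaks were called per sample. Per the deposited lists, each peak has a score, a fold enrichment (a linear ratio of summit pileup to local background), −log10 p and −log10 q, and a summit offset. Whole summit pileups were recovered from fold and −log10 p under the MACS2 formula, which adds 1 to pileup and background, for at least 99.995% of the peaks of each list (tolerance 0.001).

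The regions described (the members) and gene lists were chosen with earlier results of these data known. Percentile ranks among the 15109 regions called in all 9 lists were fitted with limma 3.58.1 (trend, robust, R 4.3.3), with 1 term per day and Benjamini-Hochberg adjustment. A check on simulated data ranked independent counts drawn at the day 8 pileups for all 9 lists. It did not cover fold ranks or the smaller day 4 summits. Single values were compared by exact permutation over 20 arrangements of 3 against 3 lists. Named regions are, per comparison, the 8 largest called differences each way, up to 10 called regions at genes of the lists, the 10 with the highest lowest rank, and fixed T cell genes; others are said to be picked after their values were seen. A few genes are not reported here. Genes and promoter windows are RefSeq GRCm38.p6; 389 of 391 listed symbols matched, and 17274 of 21631 protein-coding genes had a window. Alternatives ranked by −log10 p, width or pileup, changed the thresholds, left out lists, or used a replicate block. Python 3.11.15, numpy 2.4.6, pandas 2.3.3, scipy 1.17.1 and matplotlib 3.10.9 did the rest.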

Additional observations from a re-analysis of the deposited data

Results flagged for a closer look

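Outside chromosomes 1 to 19 and X the 9 lists held 212 peaks, which the comparisons do not use: 194 on chromosome Y and 18 on the mitochondrial chromosome, 2 in every list. The Y peaks formed 28 regions, and 4 of them were called in all 9 lists within 1 kb of an end of a protein-coding gene, at Eif2s3y, Uty, Ddx3y and Gm52481. Each list had between 19 and 26 Y peaks.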

How the results depend on the processing

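The number of always-called gene-end regions was 4143, not 8003, when the peaks of each list had to cover at least 0.5 of the region, and 7996 to 8339 without any 1 list. Among genes longer than 1 kb, 44.6% had such a region. Without any 1 list, the counts of regions called by fold rank were 405 to 610 higher and 896 to 1302 lower on day 8 than on day 4, and 367 to 556 higher and 1173 to 1592 lower on day 21 than on day 4. With the replicate block they were 626 and 1317 for day 8 against day 4; replicate numbers did not pair the lists, with correlations of deviations from −0.013 to 0.027. Ranked by −log10 p, 425 were lower on day 8 than on day 4, 44 higher and 79 lower on day 21 than on day 8, and 258 higher and 609 lower on day 21 than on day 4. Ranked among the gene-end regions only, 942 were higher on day 21 than on day 4, and with only the lists of days 8 and 21, 2 were lower on day 21. Ranked by summit pileup, added after seeing the data, 511 were lower on day 8 than on day 4, 336 higher and 710 lower on day 21 than on day 8, and 233 higher and 689 lower on day 21 than on day 4. With each day as 1 library with counting error, also added, 0 were higher on either later day than on day 4, 4 were lower on day 8 and 3 on day 21. By pileup the day 8 minus day 4 difference in median rank was 0.197 and in the share of the 1000 strongest peaks 3.23 percentage points, opposite in sign to the fold ranking.

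Of 56 named differences, 56 kept direction and call with the replicate block, 56 among the gene-end regions only, 39 by −log10 p, 22 by pileup and 14 by summed peak width. In the fits without any 1 list 494 of 504 did. The sign turned by −log10 p for H2-K1 (0.0044, day 8 against day 4). By pileup it turned on day 8 for H2-K1 (0.026), Pkm (1.19), Id2 (3.25) and Fosl2 (2.28), and on day 21 against day 4 for H2-K1 (0.026) and Jun (0.575). The H2-K1 pileup rank is at its ceiling, so its sign there carries no information. By summed width it turned on day 8 for Vps51 (−1.15), Mrps21 (−0.492), Pigt (−1.86), Tmem123 (3.38), H3c7 (16.6), Ctcf (5.32) and Foxo1 (15.8), and on day 21 against day 4 for Mrps21 (−3.76), Pigt (−2.38), Fastkd2 (−15.9), Tmem123 (3.08), Arid4a (2.57), Fasl (−9.19) and Mki67 (30.1). The cause was not tested. Day 4 summits of 34 to 41 tags at the median limit what can be told apart there.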
